A study of Mus musculus with 8 samples.

Results

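The genes described here carry bile acids, bile lipids and conjugated organic anions across liver cell membranes, and their levels were read in single cells of the healthy mouse liver. They were chosen by name as *Slc10a1*, *Slc10a2*, *Slco1b2*, *Abcb11*, *Abcb4*, *Abcc2*, *Abcc3*, *Abcg5*, *Abcg8* and *Slc51a*, which are 10 of the 46517 genes in the count table, and all 10 were found in it. The study sorted 3491 single cells from livers of adult, healthy C57Bl6 mice of both sexes into plates and sequenced each by Smart-seq2. Hepatocytes were taken without enrichment, cholangiocytes with an antibody to EPCAM, endothelial cells with antibodies to PECAM1 or VE-cadherin or by GFP in *Cldn5* reporter mice, Kupffer cells with an antibody to CD68, and mesenchymal cells from reporter mice with GFP under *Pdgfrb*, *Pdgfra* (nuclear H2bGFP) or *Acta2*, or with an antibody to PDGFRα. No group was treated, the study enriched for chosen cells, and numbers of cells per type therefore reflect the sort. The male and the female cells of each class form the 8 samples of the series, which were split here into 5 cell types with 2 pools each.

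Hepatocytes take up bile acids from sinusoidal blood and secrete them across the canalicular membrane into bile, together with phospholipid, cholesterol and conjugated anions. Uptake runs through the sodium-dependent cotransporter NTCP (*Slc10a1*) and the organic anion transporter OATP1B2 (*Slco1b2*), and canalicular export through the bile salt export pump (*Abcb11*), the phosphatidylcholine floppase MDR2 (*Abcb4*), MRP2 (*Abcc2*) and the sterol transporter that ABCG5 and ABCG8 form together. MRP3 (*Abcc3*) and the organic solute transporter with its alpha subunit OSTα (*Slc51a*) export anions and bile acids at the basolateral side, and ASBT (*Slc10a2*) takes up bile acids from the lumen of ileum and bile duct.

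Levels are given as CPM, the counts of a gene per 1000000 counts, in the summed cells of a type or cluster. The male pools held 201 hepatocytes, 157 cholangiocytes, 655 endothelial, 255 immune and 998 mesenchymal cells, and the female pools held 2, 37, 451, 396 and 339. The median cell had 228708 counts, the shallowest 47063 and the deepest 1128421. The female hepatocyte pool stood apart, since its 2 cells had 53333 and 104711 counts and held none of the 10 transporters, although 8 or more of 10 hepatocyte markers such as *Alb* and *Trf* were present in each. Summed endothelial markers were at 709 CPM in these 2 cells and at 109 CPM in the male hepatocytes, and the part of this in their transporter values was not tested. Marker levels matched the labels in the pools. The 10 hepatocyte markers summed to 22645 CPM in male and 37224 CPM in female hepatocytes, against 6137 and 7174 CPM in cholangiocytes and 428 to 2858 CPM in the other pools, and the 10 cholangiocyte markers to 11152 and 13838 CPM in cholangiocytes, against 823 CPM or less elsewhere. The fits were therefore also computed without the 2 female cells, whereas counts over all hepatocytes or over the cluster of these cells include them. The cell types and clusters were defined by the study on these same transcriptomes, so a difference between them is partly built in. No label ties a cell to a mouse, and p-values measure only the spread between these pools, which differ in sex and plates.

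Across the transporters, hepatocytes stood above the nonparenchymal cells (in the fits, the mean of endothelial, immune and mesenchymal cells). In 1 edgeR quasi-likelihood fit over the 10 sums, with Benjamini-Hochberg adjustment over 23663 genes and a call at an adjusted p under 0.05 with at least a 2-fold change, 8 of the 10 transporters were called higher in hepatocytes, where 6.69% of all genes were, and 0 were called lower, where 5.74% were. The 8 were *Slc10a1*, *Slco1b2*, *Abcb11*, *Abcb4*, *Abcc2*, *Abcg5*, *Abcg8* and *Slc10a2*. Without the 2 female hepatocytes the same 8 were called, with the male cells as the lone hepatocyte pool. In every fit that leaves out a pool, the lone pool of that type is assumed to vary like the pools of the other types. The median log2 fold change of the transporters was 6.10, against −1.35 over all genes tested, and was the same with *Abcg5* and *Slc51a*, which had no count in some types, set at the level of 3 counts there. With the male hepatocytes left out, the 2 female cells alone gave 0 calls, and 0 transporters at an unadjusted p under 0.05.

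**Figure D1:**
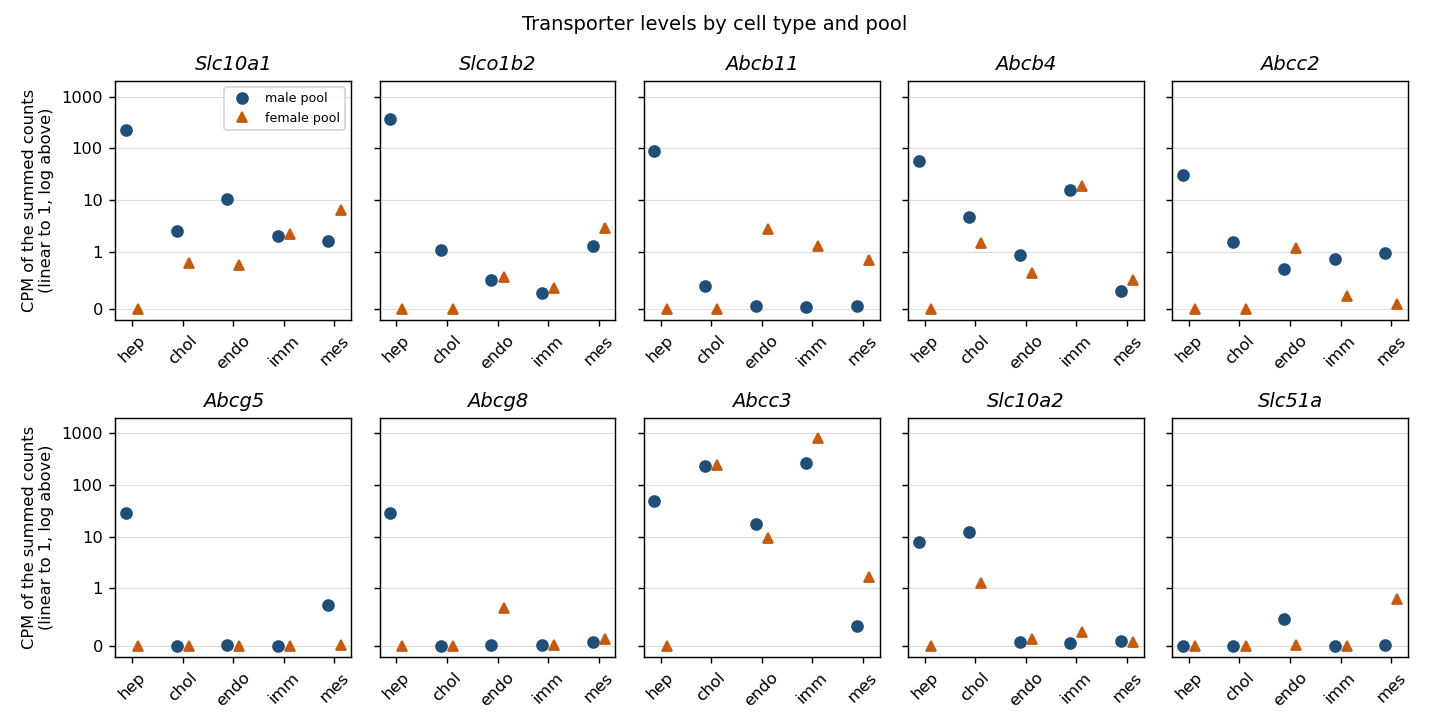
Level of each transporter in CPM of summed counts (vertical axis, linear to 1 and logarithmic above) in hepatocytes (hep), cholangiocytes (chol), endothelial (endo), immune (imm) and mesenchymal (mes) cells. Circles are male and triangles female pools; the female hepatocyte pool holds 2 cells and is at 0 throughout, and *Abcc3* reached its highest level, 799 CPM, in the female immune pool.

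The gene of the main bile acid uptake transporter, *Slc10a1*, was at 227 CPM in male hepatocytes. It was at 2.45 and 0.801 CPM in the male and female cholangiocytes, 10.5 and 0.769 in endothelial, 2.01 and 2.21 in immune and 1.58 and 6.47 in mesenchymal cells. The male hepatocyte pool lay above all 8 pools of other types, and the female one, at 0, below all of them. *Slc10a1* was called higher in hepatocytes than in nonparenchymal cells with a log2 fold change of 5.72 (SE 1.11, edgeR adjusted p = 0.00888). That value was 5.39 without the female endothelial pool and 6.69 without the 2 female hepatocytes. A count was present in 87 of 201 male hepatocytes (43.3%, exact 95% interval 36.3% to 50.4%), against 11 of 194 cholangiocytes (5.67%). The organic anion transporter gene *Slco1b2* was at 363 CPM in male hepatocytes, at 1.05 and 0 CPM in cholangiocytes, 0.502 and 0.561 in endothelial, 0.279 and 0.366 in immune and 1.31 and 2.89 in mesenchymal cells. No pool of another type reached 3 CPM, and the log2 fold change of hepatocytes over nonparenchymal cells was 8.69 (SE 1.17, edgeR adjusted p = 0.00164). This fold change was 8.51 without the male mesenchymal pool and 9.7 without the 2 female hepatocytes. Per kilobase of exon, the 2 uptake genes were the highest of the transporters in male hepatocytes, with 103 CPM per kb for *Slc10a1* and 73.6 for *Slco1b2*.

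The windows from 250 bases before to 50 bases after the annotated starts of the 2 uptake genes are shown because these genes were the highest per length in hepatocytes. They are RefSeq sequences of GRCm38.p6, read 5′ to 3′ along the gene, *Slc10a1* on the minus strand of chromosome 12 at chr12:80968656-80968955 and *Slco1b2* on the plus strand of chromosome 6 at chr6:141629268-141629567. Capitals mark motifs found on either strand. These were the TATA box with the letters TATAAA and the half-site of HNF4 with the letters CAAAGT. In *Slc10a1* the capitals TTTATA are the TATA box read on the other strand.
Slc10a1: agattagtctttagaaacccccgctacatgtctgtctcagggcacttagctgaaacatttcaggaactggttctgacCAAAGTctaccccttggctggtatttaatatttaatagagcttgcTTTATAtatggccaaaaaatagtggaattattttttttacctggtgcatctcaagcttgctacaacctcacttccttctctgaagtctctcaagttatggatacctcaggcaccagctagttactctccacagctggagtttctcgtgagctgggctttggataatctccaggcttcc
Slco1b2: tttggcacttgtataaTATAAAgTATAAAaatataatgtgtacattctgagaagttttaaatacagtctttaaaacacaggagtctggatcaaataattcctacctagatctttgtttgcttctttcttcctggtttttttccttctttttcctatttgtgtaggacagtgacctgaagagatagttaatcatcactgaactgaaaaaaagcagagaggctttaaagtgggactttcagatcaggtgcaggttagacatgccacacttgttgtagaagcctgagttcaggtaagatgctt
The HNF4 half-site began 173 bases before this *Slc10a1* start and was in 14.4% of all 32817 promoter windows of this length. The letters of the TATA box, found in both windows, were in 13.6% of all windows. They began 234 and 227 bases before the *Slco1b2* start and, on the other strand, 128 bases before this *Slc10a1* start. RefSeq gives *Slc10a1* another start, with the window chr12:80968030-80968329, in which the HNF4 half-site began 70 bases before the start and no TATA box was found. A match describes these letters and is no evidence of binding. Of the 10 transporters, 9 had such a window and *Abcc3* did not. Inverted repeat 1, the element bound by the bile acid receptor FXR, was searched with its full consensus letters, and was in 0.0274% of all windows and in none of the 9.

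Per kilobase the 3 single-gene canalicular exporters were lower in male hepatocytes than the uptake genes, at 17.4 CPM per kb for *Abcb11*, 5.94 for *Abcb4* and 3.48 for *Abcc2*, and *Abcb4* had a further level in immune cells. *Abcb11*, the bile salt export pump (chr2:69238282-69342616, minus strand), was at 89.8 CPM in male hepatocytes, in 44 of 201 cells. It was at 0.391 and 0 CPM in cholangiocytes, 0.0520 and 2.79 in endothelial, 0.0294 and 1.26 in immune and 0.0504 and 0.852 in mesenchymal cells. The 3 female nonparenchymal levels each came almost wholly from 1 cell, which gave 96.1%, 92.6% and 86.6% of the counts. *Abcb11* was called higher in hepatocytes than in nonparenchymal cells, with a log2 fold change of 6.71 (SE 1.57, edgeR adjusted p = 0.0208). The fold change was 6.35 without the male and 8.29 without the female endothelial pool, and 6.38 without the male and 8.32 without the female immune pool. That call was lost without the male endothelial (edgeR adjusted p = 0.0513), the male immune (0.0513) or the male mesenchymal pool (0.0619).

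*Abcc2*, which exports conjugated bilirubin and other anions into bile (chr19:43782192-43840740, plus strand), was at 29.7 CPM in male hepatocytes, and no other pool was above 1.53 CPM. It was present in 24 of 201 male hepatocytes and was called higher than in nonparenchymal cells, with a log2 fold change of 5.42 (SE 1.22, edgeR adjusted p = 0.0181). The call was lost without the male endothelial (edgeR adjusted p = 0.0634), the female endothelial (0.056) or the female mesenchymal pool (0.0506). *Abcb4*, the phospholipid floppase (chr5:8893717-8959231, plus strand), was at 55.8 CPM in male hepatocytes and also at 15.3 and 18.9 CPM in the immune pools. Cholangiocytes held 4.57 and 1.44 CPM, endothelial cells 0.941 and 0.633 and mesenchymal cells 0.311 and 0.501. Its log2 fold change of hepatocytes over nonparenchymal cells, 4.86 (SE 0.834, edgeR adjusted p = 0.00512), was the lowest among the 8 called transporters.

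The sterol pair was counted almost only in hepatocytes. *Abcg5* was at 28.8 CPM and *Abcg8* at 29.2 CPM in male hepatocytes, which is 10.6 and 7.79 CPM per kb. Neither had a count in any of 194 cholangiocytes, which allows a share of up to 1.55%. Against the level that 3 counts would give over both cholangiocyte pools, all hepatocytes together were 597-fold higher for *Abcg5* and 605-fold higher for *Abcg8*. These ratios are not lower limits, since amplified reads are not independent molecules. In nonparenchymal pools *Abcg5* ranged from 0 to 0.710 CPM and *Abcg8* from 0.00577 to 0.651 CPM, and the highest of these came to 97.4% and 84.7% from 1 cell. Both were called higher in hepatocytes than in nonparenchymal cells. *Abcg8* had a log2 fold change of 8.56 (SE 1.39, edgeR adjusted p = 0.00498), which was 8.19 without the male and 10.39 without the female endothelial pool. *Abcg5* (edgeR adjusted p = 0.00429) had no count in 651 immune cells, so no fold is given for it. Hepatocytes were 1772-fold above the level that 3 counts would give over both immune pools, which again is not a lower limit. Among 203 hepatocytes, 21 had *Abcg5* and 30 had *Abcg8*, and 12 had both, which is 12 of 21 and 12 of 30.

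The genes of the pair lie head to head on chromosome 17 in GRCm38, *Abcg5* at chr17:84658234-84683011 on the minus strand and *Abcg8* at chr17:84676302-84700333 on the plus strand. Of the 2 annotated *Abcg8* starts in RefSeq, 1 lies within *Abcg5* (window chr17:84676052-84676351) and the other is 110 bases from the *Abcg5* start, so that the 300-base windows share 209 bases, and the *Abcg5* window at chr17:84682962-84683261 is shown because it covers the space between the starts. Capitals mark TATAAA and GATAAG.
Abcg5: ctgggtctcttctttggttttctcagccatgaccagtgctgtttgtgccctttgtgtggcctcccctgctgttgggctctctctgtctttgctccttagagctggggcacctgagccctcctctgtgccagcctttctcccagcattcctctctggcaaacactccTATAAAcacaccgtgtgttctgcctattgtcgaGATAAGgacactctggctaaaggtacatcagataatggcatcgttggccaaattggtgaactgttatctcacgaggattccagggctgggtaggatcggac
TATAAA began 84 bases before the *Abcg5* start and GATAAG, which was in 7.45% of all windows, began 51 bases before it. Read on the other strand, the same letters began 31 and 64 bases before this *Abcg8* start. Exons of the 2 genes share 82 bases on opposite strands, and whether the counting used the strand is not given in the sources used here.

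The highest *Abcc3* level (chr11:94343295-94392997, minus strand) was in immune cells and not in hepatocytes. *Abcc3* was at 268 and 799 CPM in the male and female immune pools and at 234 and 242 CPM in cholangiocytes. It was at 48.3 CPM in male hepatocytes, 17.3 and 9.59 in endothelial and 0.348 and 1.64 in mesenchymal cells. Immune and cholangiocyte pools did not overlap any pool of the 3 other types, the male immune pool lay close to the cholangiocytes, and the difference between immune cells and cholangiocytes was not tested. *Abcc3* was called higher in cholangiocytes than in the mean of endothelial, immune and mesenchymal cells, with a log2 fold change of 3.47 (SE 0.81, edgeR adjusted p = 0.0207). Both immune pools were themselves above both cholangiocyte pools. *Abcc3* was 1 of 2 transporters called there, with 6.9% of all genes called higher and 3.69% lower. The call did not hold without either cholangiocyte pool (edgeR adjusted p = 0.121 without the male and 0.0966 without the female), nor without the male endothelial (0.0622), the female endothelial (0.0755), the male immune (0.0667) or the male mesenchymal pool (0.0689).

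Immune cells were set against the mean of the other 4 types after the *Abcc3* levels had been seen. In that comparison *Abcc3* had a log2 fold change of 4.90 (SE 0.749, edgeR adjusted p = 0.00194) and was called in each of the 17 alternatives that gave a value. *Abcb4* had a log2 fold change of 2.81 (SE 0.752, edgeR adjusted p = 0.0327), a call that was lost in 7 of the fits that left out a pool (adjusted p from 0.0598 to 0.169). These were the 2 transporters called, with 9.76% of all genes called higher and 3.33% lower. *Slco1b2* was lower in immune cells by value but not called (log2 fold change −3.42, SE 1.41, edgeR adjusted p = 0.149). Hepatocytes did not differ by a call from nonparenchymal cells in *Abcc3* (log2 fold change 1.27, SE 0.865, edgeR adjusted p = 0.344). Without the 2 female hepatocytes the log2 fold change was 2.04 (edgeR adjusted p = 0.0853). Without the 64 cells of hepatocyte cluster p1, which include these 2 cells, it was 2.35 and called (edgeR adjusted p = 0.0497), also with the male cells as the lone hepatocyte pool.

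In the study's clusters the *Abcc3* level was highest in the 5 Kupffer cell clusters (i6, i7, i3, i1 and i4), which ran from 999 CPM in i6 down to 438 CPM in i4. The cholangiocyte cluster p2 followed at 234 CPM, the myeloid cluster i2 at 136 CPM and hepatocyte cluster p3 at 99.0 CPM, and the B cell cluster i5 was at 2.34 CPM. Of 528 Kupffer cells 470 had a count, 84 of 134 in the male pool (62.7%) and 386 of 394 in the female pool (98.0%), at 493 and 800 CPM. The Kupffer marker *Clec4f*, a lectin receptor, was at 4827 and 5247 CPM in these cells, and the cholangiocyte marker *Krt19* at 0.0969 and 0.299 CPM. On the 3 plates with several cells of both types, *Abcc3* was at 844 CPM in Kupffer cells and 246 CPM in cholangiocytes on 1 plate, at 274 and 84.2 CPM on another, and at 2599 and 128 CPM on the third, which held 7 and 9 such cells. The endothelial cluster e8 held *Abcc3* at 74.2 CPM in 63 of 155 cells, and *Clec4f* was at 636 CPM in the e8 cells with *Abcc3* against 98.3 CPM in those without it. The part of Kupffer cell RNA in the e8 level was not tested. In mesenchymal cells only 56 of 1337 had a count (4.19%).

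**Figure D2:**
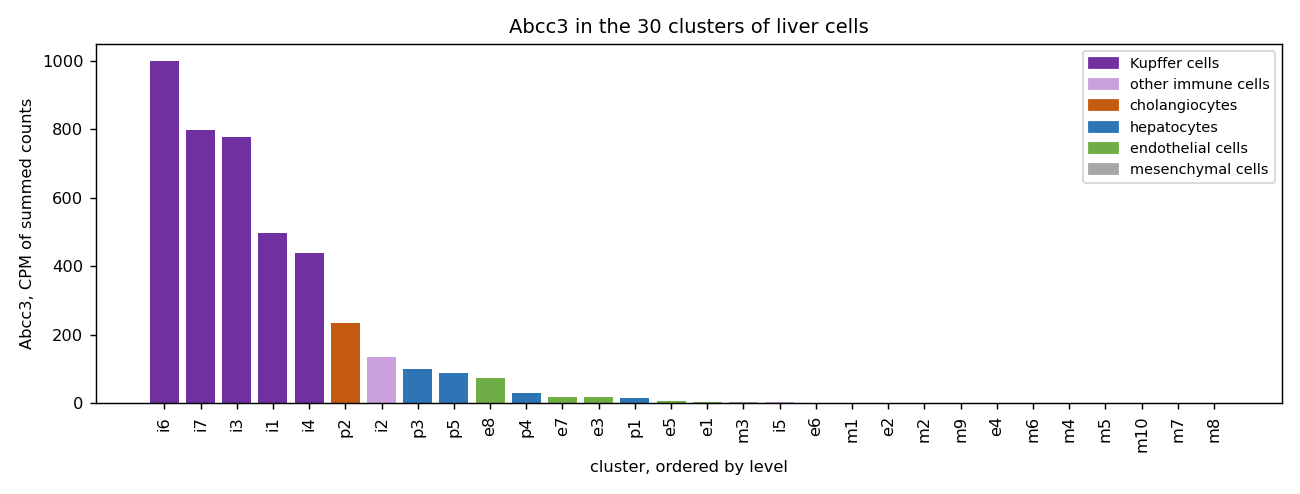
*Abcc3* in CPM of summed counts (vertical axis, from 0) in the 30 clusters of liver cells, ordered by level and coloured by cell type. The 5 Kupffer cell clusters come first, from 999 to 438 CPM, followed by cholangiocytes (p2) at 234 CPM.

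*Abcb4* shared the Kupffer cell signal at lower levels, with 20.04 CPM in male and 18.9 CPM in female Kupffer cells. It had a count in 14 of 134 male (10.4%) and 176 of 394 female Kupffer cells (44.7%), and ran from 12.4 CPM in i1 to 31.6 CPM in i3. In i1, 66.9% of the *Abcb4* counts came from 1 cell, and in i3 50.8%. The other 2 immune clusters were at 12.1 CPM (i2) and 10.04 CPM (i5), of which 94.1% and 88.0% came from 1 cell in each.

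*Slc51a*, the OSTα subunit (chr16:32474504-32487879, minus strand), had no count in 203 hepatocytes or 194 cholangiocytes, which allows shares of up to 1.48% and 1.55%, and a count in 8 of 3094 other cells, of which 2 had 20 or more counts. At this depth a level in parenchymal cells was not detectable. *Slc51b*, which encodes the partner subunit OSTβ, was at 0.195 CPM in male hepatocytes and 0.445 CPM in male cholangiocytes. Of the *Slc51a* exon length 17.7% overlaps *Pcyt1a* on the other strand, a gene with 60307 counts in all cells. *Slc10a2*, the ileal and cholangiocyte uptake transporter (chr8:5083219-5105351, minus strand), was at 12.3 and 1.28 CPM in male and female cholangiocytes. It was at 7.89 CPM in male hepatocytes and at 0.238 CPM or less in all nonparenchymal pools. The gene was called higher than in nonparenchymal cells in cholangiocytes (log2 fold change 5.93, SE 0.997, edgeR adjusted p = 0.00413) and in hepatocytes (6.48, SE 1.05, edgeR adjusted p = 0.0038), and the 2 parenchymal types did not differ by a call (−0.56, SE 1.35, edgeR adjusted p = 0.88). These levels rested on few cells, 14 of 194 cholangiocytes and 11 of 201 male hepatocytes, and 40.3% of the cholangiocyte counts came from 1 cell. Without the male cholangiocytes the first of these calls was lost, at a log2 fold change of 3.51. Without the female cholangiocytes that fold change was 6.77.

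Set directly against hepatocytes, cholangiocytes were called lower in 3 transporters, where 1.9% of all genes were, and higher in 0, where 3.81% were. The 3 were *Slco1b2* (log2 fold change −9.04, SE 1.97, edgeR adjusted p = 0.0338), *Abcg5* (edgeR adjusted p = 0.0479) and *Abcg8* (edgeR adjusted p = 0.0418). *Slc10a1* had a log2 fold change of −6.97 and an edgeR adjusted p of 0.055, *Abcb4* of −4.24 and 0.073, *Abcb11* of −8.42 and 0.098, and *Abcc2* of −5.25 and 0.125. Higher in cholangiocytes by value, but not called, was *Abcc3*, at 2.20 (SE 1.16, edgeR adjusted p = 0.277). Without the 2 female hepatocytes, and so with 1 hepatocyte pool whose spread is taken from the other types, the calls were 4, with *Slc10a1* (−7.89, edgeR adjusted p = 0.0233) and *Abcb4* (−5.03, 0.0232) added and *Abcg5* (0.0502) lost. The median over the transporters was −6.11 against 0.51 over all genes, and is the same with *Abcg5* and *Abcg8* set at the level of 3 counts in cholangiocytes. Leaving out the male hepatocytes, the male or female cholangiocytes, or the male or female mesenchymal cells left 0 transporters called, with 1, 7, 5, 7 and 7 at an unadjusted p under 0.05. Without the male or the female endothelial pool 1 was called, since *Slco1b2* (edgeR adjusted p = 0.0579 and 0.058) and *Abcg5* (0.0634 in both) were lost, and *Abcg8* was lost without the female immune pool (0.0505).

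Hepatocytes fell into 4 clusters in the study, p1 with 64, p3 with 23, p4 with 59 and p5 with 57 cells. Clusters p3, p4 and p5 came from the male pool only, and 82.6%, 94.9% and 98.2% of their cells from 1 plate, so levels between clusters are given without a test. Cluster p4 carried periportal and p5 pericentral genes: from p4 to p5 the log2 ratio was −6.98 for *Hal* (histidine ammonia lyase) and −5.49 for *Cyp2f2*, and 5.80 for *Glul* (glutamine synthetase) and 3.78 for *Cyp2e1*. Of the transporters 9 reached 10 CPM in p4 or p5. From p4 to p5, 4 of them were at least 2-fold higher, where 17.8% of 8488 genes were, and 2 at least 2-fold lower, where 20.2% were.

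*Slco1b2* was at 108 CPM in p4 and 412 CPM in p5, a log2 ratio of 1.93 with a counting interval of 1.85 to 2.02, and was present in 25 of 59 and 36 of 57 cells. *Slc10a1* lay the other way, at 219 CPM in 37 of 59 p4 cells and 145 CPM in 21 of 57 p5 cells, a log2 ratio of −0.59. The 2 uptake genes thus differed in direction between the clusters. *Abcb11* was at 114 and 49.8 CPM (log2 ratio −1.17) and *Abcc2* at 42.3 and 7.73 CPM (−2.31). The other 3 genes that were higher in p5 were *Abcg8* at 14.3 and 60.6 CPM (2.01), *Abcc3* at 29.2 and 87.4 CPM (1.55) and *Abcg5* at 13.1 and 28.8 CPM (1.08). *Abcb4* was near level at 54.3 and 62.4 CPM (0.20). Single cells weighed on several of these values: 1 cell gave 61.8% of the p4 counts of *Abcc3*, 52.0% of those of *Abcg5* and 52.7% of the p5 counts of *Abcc2*. Over the mean of cells in place of the sum, the log2 ratio of *Abcg5* was 0.57. Counting intervals treat reads as independent, which amplified reads without molecular identifiers are not.

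**Figure D3:**
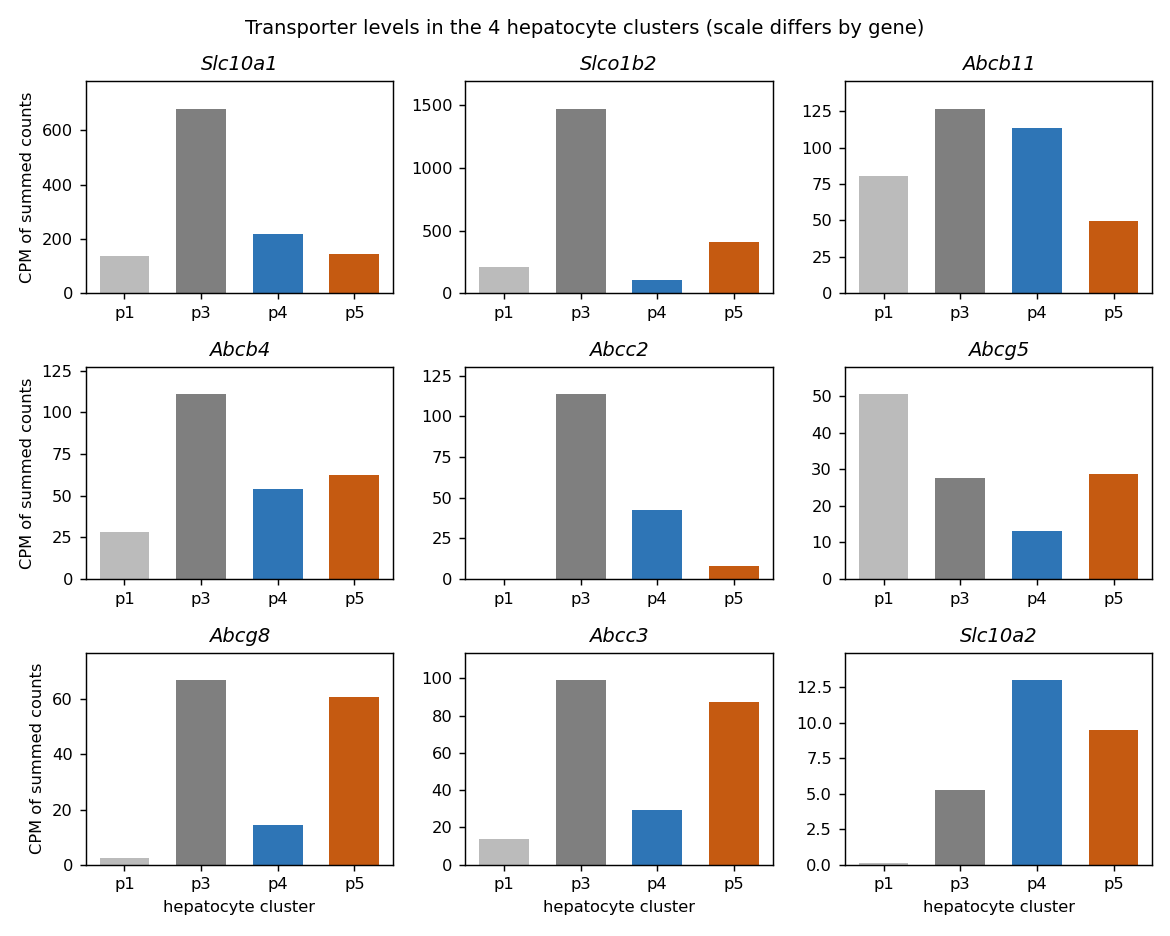
Level of 9 transporters in CPM of summed counts (vertical axes from 0, with a scale for each gene) in hepatocyte clusters p1, p3, p4 and p5. Bars are single pooled values without replicates; *Slco1b2*, *Abcg8* and *Abcc3* were higher in p5 than in p4, and *Abcb11* and *Abcc2* higher in p4.

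Cluster p3, with 23 cells, held the highest level of 7 of the transporters among the 4 hepatocyte clusters. *Slco1b2* was at 1474 CPM and *Slc10a1* at 680 CPM there, each in 21 of 23 cells (91.3%, exact 95% interval 72.0% to 98.9%). *Abcb11* was at 127 CPM, close to the 114 CPM in p4, and over the mean of cells p4 was the higher, at 132 CPM against 128 CPM in p3, as it was on the largest plate (119 against 111 CPM). *Abcc2* was at 113, *Abcb4* at 111, *Abcc3* at 99.0 and *Abcg8* at 66.8 CPM in p3. Of the pericentral genes, *Cyp2e1* was at 4561 CPM in p3 and 2770 CPM in p5, whereas *Glul* was at 997 and 2365 CPM. Of the periportal genes, *Hal* was at 82.5 CPM in p3 and 14.1 CPM in p5, and *Cyp2f2* at 371 and 24.9 CPM. In p4 these periportal genes were at 1899 and 1164 CPM. No p3 cell lacked every transporter, and the median cell held 4 of the 10, against 2 in p4 and in p5.

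Cluster p1 was the opposite case in the number of transporters per cell. Against 108 CPM in p4, p1 held *Slco1b2* at 213 CPM. Of its 64 cells, 29 held no transporter, against 8 of 59 in p4 and 8 of 57 in p5, and the median cell held 1. *Slc10a1* was present in 8 of 64 cells (12.5%, exact 95% interval 5.55% to 23.2%) at 136 CPM, of which 48.8% came from 1 cell. *Abcb11* at 80.4 CPM rested to 85.2% on 1 cell, *Abcg5* at 50.5 CPM came from 2 cells, and *Abcc2* was at 0.106 CPM. The median p1 cell had 131878 counts and 2181 genes, against 149112 and 2917 in p5, 153581 and 3418 in p3 and 204679 and 3909 in p4, and p1 cells came from 12 plates. The part of depth in the missing transporters was not tested. The most transporters in any hepatocyte were 8, in a p5 cell. Both uptake genes were present in 20 of 23 p3 cells, 19 of 59 p4, 15 of 57 p5 and 1 of 64 p1 cells.

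**Figure D4:**
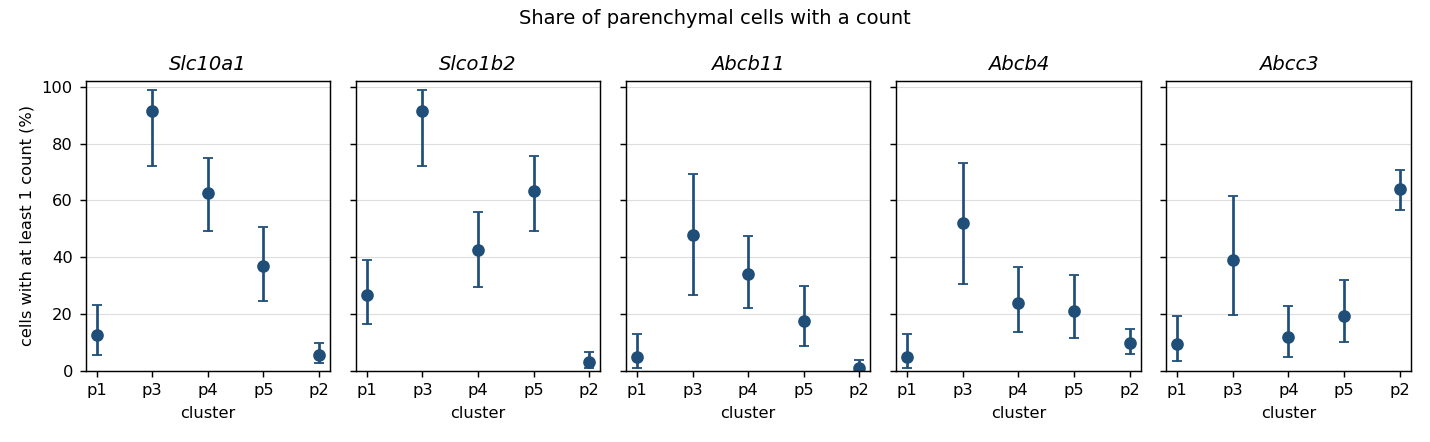
Share of cells with at least 1 count (vertical axis, percent) for 5 transporters in hepatocyte clusters p1, p3, p4 and p5 and in cholangiocytes (p2). Points are shares and bars exact 95% binomial intervals; *Slc10a1* runs from 12.5% in p1 to 91.3% in p3, and *Abcc3* is at 63.9% in p2.

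Outside the parenchyma, *Slc10a1* had an additional level in the endothelial cluster e3, at 20.9 CPM in 43 of 236 cells. Of these 43 cells, 41 came from 1 plate, which held 192 of the 236 e3 cells and on which e3 was at 23.8 CPM and the endothelial cluster e5 at 13.5 CPM in 4 of 38 cells. On the plate with the next most e3 cells the level was 9.93 CPM, in 2 of 30 cells. *Slco1b2* was at 0.713 CPM in e3. Of the hepatocyte markers, *Alb*, the gene of serum albumin, was at 138 CPM in the e3 cells with *Slc10a1* and 156 CPM in those without it, whereas *Ttr* was at 42.0 and 22.2 CPM and *Cps1* at 4.75 and 1.34 CPM. *Cps1* had a count in only 1 of the 43 cells with *Slc10a1* and in 10 of the 193 without it. The part of the plate and of hepatocyte RNA in this level was not tested.

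Other genes of bile formation were read from lists, whose counts stand beside these shares of all genes: 6.69% called higher and 5.74% lower in hepatocytes against nonparenchymal cells, 6.9% and 3.69% in cholangiocytes against nonparenchymal cells, 3.81% and 1.9% in cholangiocytes against hepatocytes, and 9.76% and 3.33% in immune cells. Of 18 genes of bile acid synthesis and conjugation, 13 were called higher in hepatocytes than in nonparenchymal cells and 0 lower. *Baat*, which conjugates bile acids to taurine or glycine, was at 509 CPM in male hepatocytes (log2 fold change 11.04, SE 1.52, edgeR adjusted p = 0.0018). *Cyp8b1*, the sterol 12-alpha-hydroxylase, was at 171 CPM in male hepatocytes and at 7327 CPM in the pool of 2 female cells (11.84, SE 1.26, edgeR adjusted p = 0.00048), and *Acox2* (9.22) and *Akr1c6* (8.41) were called too. In cholangiocytes 3 of the 18 were called higher than in nonparenchymal cells (*Acox2*, *Baat* and *Cyp39a1*) and 1 lower (*Cyp27a1*). Of the 10 hepatocyte markers, 3 were called higher in the same comparison, *Ttr* (log2 fold change 4.34), *Alb* (3.96) and *Serpina1c* (2.80), and the part of hepatocyte RNA in these cholangiocyte levels was not tested. Against hepatocytes, cholangiocytes were called lower in 7 of the 18, *Cyp8b1*, *Slc27a5*, *Cyp7a1* and *Cyp27a1* among them. *Cyp7a1*, the rate-limiting enzyme, was at 20.6 CPM in male hepatocytes and 0.0533 CPM in male cholangiocytes. Immune cells were called lower than the other types in 2 (*Cyp39a1* and *Cyp7b1*).

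Among 15 tested bile acid sensors and regulators, 7 were called higher in hepatocytes than in nonparenchymal cells and 0 lower. The largest changes were in the nuclear receptor PXR (*Nr1i2*, log2 fold change 9.004), *Foxa2* (8.76) and *Hnf4a* (8.57). *Nr1h4*, the bile acid receptor FXR, was at 224 CPM in male hepatocytes, 24.3 and 32.7 in cholangiocytes and 140 and 98.9 CPM in mesenchymal cells, and *Nr0b2* (SHP) was at 129 CPM in male hepatocytes. Cholangiocytes were called higher in 5 of the 15, *Foxa2*, *Nr1i2* and *Fgfr4* among them, and lower in *Gpbar1*, the membrane bile acid receptor, which was at 47.3 and 95.4 CPM in mesenchymal cells and 0.0711 and 0 in cholangiocytes. No regulator was called between cholangiocytes and hepatocytes. Immune cells were called higher in *Nr1h3* (LXR alpha, 427 and 1157 CPM) and lower in 2 genes, *Fgfr4* among them.

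The other bile acid and organic anion transporters gave 5 of 12 called higher in hepatocytes than in nonparenchymal cells and 2 lower. The higher ones included *Slco1a1* (124 CPM in male hepatocytes, log2 fold change 9.09, edgeR adjusted p = 0.00674), *Abcc6* (6.10) and *Slc10a5* (5.13), and the lower ones were *Slc10a3* (−3.13) and *Abcc4*, the basolateral exporter MRP4 (−7.02, edgeR adjusted p = 0.00763). *Abcc4* was at 0.167 CPM in male hepatocytes, 33.6 and 21.3 CPM in cholangiocytes, 99.8 and 91.9 in endothelial, 66.5 and 26.0 in immune and 11.4 and 4.73 in mesenchymal cells. Between cholangiocytes and hepatocytes it was called higher in the former and *Slco2b1* lower, and against nonparenchymal cells cholangiocytes were called higher in *Slc22a18* and lower in *Slco2b1*. Immune cells were called higher in *Abcc4* and *Slc10a3*.

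Of 12 other canalicular and lipid transporters 0 were called higher in hepatocytes than in nonparenchymal cells, where 6.69% of all genes were, and 2 lower, where 5.74% were, *Abcg1* (log2 fold change −6.85) and *Abca1* (−3.54), both cholesterol exporters. Cholangiocytes were called higher than nonparenchymal cells in *Atp7b* (8.50) and *Abcb1a* (4.77) and lower in *Abcg1* and *Abca1*, and higher than hepatocytes in *Abcb1a* (8.86), the drug exporter MDR1A, which was at 91.9 and 43.6 CPM in cholangiocytes and 0.0837 CPM in male hepatocytes. Immune cells were called higher in *Abcg1*, *Abca1*, *Npc2* and *Scarb1* and lower in *Atp8b1* and *Abcb1a* (log2 fold change −3.55, edgeR adjusted p = 0.0359), the latter at 0.018 and not called with sums per plate. Of 13 tested genes of canalicular trafficking and junctions, 2 were called higher in hepatocytes than in nonparenchymal cells, *Pdzk1* (5.28) and *Myo5b* (4.19), and 2 lower, *Ezr* (−6.30) and *Vps33b* (−2.98), again beside 6.69% and 5.74% of all genes. Cholangiocytes were called higher than nonparenchymal cells in 4, *Myo5b*, *Ezr* and *Anpep* among them, and higher than hepatocytes in *Ezr* (9.45), which was at 506 and 619 CPM in them, and lower in *Pdzk1* (−7.38). Immune cells were called higher in *Stx3* and *Ezr* and lower in 1 gene.

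Of 12 genes of bicarbonate and fluid secretion, 4 were called higher in hepatocytes than in nonparenchymal cells, the water channels *Aqp8* (105 CPM in male hepatocytes) and *Aqp9* (84.5 CPM), *Slc4a4* (3.79) and *Car2* (2.81). Cholangiocytes were called higher than nonparenchymal cells in 6 of the 12, with *Slc5a1* (711 and 589 CPM), the secretin receptor *Sctr* (68.6 and 57.5 CPM), the chloride channel *Cftr* (14.1 and 8.33 CPM) and *Ano1* (240 and 528 CPM) showing the largest changes. They were called higher than hepatocytes in 3 (*Slc5a1*, *Sctr* and *Ano1*) and lower in 2 (*Aqp8* and *Aqp9*, both without a count in cholangiocytes). Immune cells were called higher in *Slc9a3* and *Slc26a6* and lower in *Slc5a1*.

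Across the 30 clusters, the levels of most transporters ran together. Pearson correlations of log2(CPM + 1) were 0.876 for *Slc10a1* with *Slco1b2*, 0.848 for *Abcg5* with *Abcg8* and 0.763 for *Abcc3* with *Abcb4*, whereas *Abcc3* had 0.129 with *Slco1b2*. The points share libraries and the split into hepatocyte and other clusters, and the values are a description. Among 16593 genes with at least 10 CPM in a cluster, the nearest in pattern to *Abcc3* were *Shtn1* (0.879), *Aagab* (0.873) and *Tgm1* (0.860), and the nearest to *Abcb4* were *Pstpip2* (0.930), *Bco2* (0.922) and *Apoc1* (0.913). The genes nearest to *Slc10a1* were *Mettl7b* (0.913), *Prodh2* (0.912) and *Mup14* (0.910), to *Abcb11* *Gm8883* (0.944), *Aspdh* (0.939) and *Sult1d1* (0.939), and to *Abcc2* *Inhbc* (0.895), *Mup.ps17* (0.884) and *Mup13* (0.881). *Slco1b2* was nearest to *Gm10319* (0.969), *Dct* (0.967) and *Gm27622* (0.966). For *Abcg5* the nearest were *Gm21973* (0.975), *Gm14097* (0.970) and *Ly6g2* (0.964), for *Abcg8* *RP24.309B5.2* (0.958), *Dct* (0.955) and *Asic5* (0.944), and for *Slc10a2* *Lad1* (0.979), *RP23.480P21.2* (0.969) and *Mgam* (0.965).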

How the data were processed

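Libraries of single liver cells were made by Smart-seq2 and read once over 50 bases. The deposited values are counts of reads per gene and cell: the authors demultiplexed, mapped and counted the reads, renamed identifiers to symbols, kept ERCC spike-ins, and removed cells with few counts or genes, putative doublets by their number of genes, and cells with signs of contamination. The submitters' processing notes name bcl2fastq, Bowtie, Bowtie2, featureCounts, Subread and Seurat, with the builds GRCm38 and mm10. Duplicate removal and the treatment of reads that map to several places are not given in the sources used here. No doublet caller was run here. Of the 3491 cells, 13 had under 50000 counts without the 92 ERCC spike-ins, and these cells were kept.

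Here the counts without ERCC were summed per cell type and pool (10 sums, 22 plates in all) and fitted with edgeR 4.0.16 in R 4.3.3 (TMM, filterByExpr, quasi-likelihood test, Benjamini-Hochberg over all genes tested). DESeq2 1.42.0 was an alternative. Replicate 1 is the male and replicate 2 the female pool. Shares have exact binomial intervals at 95%, and a count of 0 allows 3 counts. Amplified reads are not independent molecules, so intervals and limits cover counting error only. Log2 ratios of clusters use a pseudocount of 1 CPM. Pearson correlations, levels and figures were made with Python 3.11.15, numpy 2.4.6, scipy 1.17.1, pandas 2.3.3 and matplotlib 3.10.9. Exon lengths come from GENCODE vM21 and promoter windows from RefSeq, both on GRCm38. The fit was tested on simulated data for the comparison of hepatocytes with nonparenchymal cells over 23663 genes: of 100 genes changed 64-fold it called 99, of 100 changed 8-fold it called 53, and it made 11 false calls. The simulation gave all genes the same spread and all types the same base levels, and changed only genes with high expected counts. These rates are therefore not the power or error rate for the transporters.

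The transporters and the gene lists were chosen with earlier results of these data known. By the rule for named genes, every transporter is named, with up to 4 genes called in each direction and with the largest changes per list and comparison, and the 3 nearest genes by correlation. Some called genes of the lists are not reported here. Genes named for their role with a value but no call in the text were chosen after their values were seen. The comparison of immune cells with the other types and the fit without cluster p1 were chosen after seeing the data. The authors' clusters and cell classes were used as deposited. Other alternatives were DESeq2 size factors, no filter, at least 5 cells per sum, thinning to 50000 counts per cell, plate sums, a block for the pool number, fits that leave out a pool, a detection limit of 20 counts, the mean of cells and the largest plate.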

Additional observations from a re-analysis of the deposited data

How the results depend on the processing

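In hepatocytes against nonparenchymal cells, 8 transporters and 2941 genes were called, and 5313 genes with sums per plate. Leaving out each pool in turn gave 0 to 8 transporters and 1357 to 3623 genes. In cholangiocytes against nonparenchymal cells, 2506 genes were called, and 3980 without a filter; leaving out pools gave 0 to 2 transporters and 923 to 2915 genes, with 2 transporters at an unadjusted edgeR p under 0.05 without male cholangiocytes. In cholangiocytes against hepatocytes, 3 transporters and 1350 genes were called. DESeq2 gave 7 transporters and 3526 genes, its size factors in edgeR 5 transporters, no filter 7 transporters and 2555 genes, and sums per plate 2565 genes; leaving out pools gave 0 to 4 transporters and 0 to 1893 genes. The 0 genes came without either cholangiocyte pool, with 5071 (male left out) and 5196 genes (female left out) at an unadjusted p under 0.05. In immune cells against the other types, 3096 genes were called, 4829 without a filter and 4916 with sums per plate. Leaving out pools gave 1 to 2 transporters called higher, and 1454 to 3413 genes called in either direction. *Slco1b2*, not called in the main fit, was called lower in this comparison with DESeq2 (log2 fold change −3.34) and with sums per plate (−3.43). Without the 2 female hepatocytes the log2 fold change of *Slco1b2* was −3.79. The causes of these changes were not tested.

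Some log2 fold changes that were not called turned in direction. In cholangiocytes against nonparenchymal cells these were *Slco1b2* (0.30 after thinning, −0.52 to 0.37 over left-out pools), *Abcb11* (0.31 with the replicate block), *Abcb4* (−0.47 to 1.19 over left-out pools) and *Abcc2* (−0.66 with the block, −0.16 after thinning, −0.14 to 1.06 over left-out pools). *Slc10a2* in cholangiocytes against hepatocytes turned to 0.37 with sums per plate (−2.93 to 0.30 over left-out pools). Of the called changes, that of *Abcb1a* in immune cells turned to 0.018 with sums per plate. In some combinations of gene, comparison and setting no fold is given, since a cell type of the comparison held no count of the gene, or the setting took away all its counts in a cell type.

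The pool numbers stand for sex, and pools of the same number share some plates. No label ties their cells to the same mice, and deviations from the type means correlated between types by −0.035 to 0.106, so the numbers were not taken to pair the samples. With the replicate block, 792 genes were called between cholangiocytes and hepatocytes, and 6 transporters in hepatocytes against nonparenchymal cells, without *Abcb11* (edgeR adjusted p = 0.0548) and *Abcc2* (0.0663). Between cholangiocytes and hepatocytes 2 transporters were called with the block, without *Abcg8* (0.0596). DESeq2 size factors moved the median log2 fold change of all genes by 0.22 for hepatocytes and 0.21 for cholangiocytes against nonparenchymal cells.

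Of the transporters, 6 had a count in at least 5% of the cells of a nonparenchymal cluster. The limit of 20 counts left 3, so that many of these signals rest on few reads. With 2 pools per type and 2 female hepatocytes, sex could not be separated from plate. In the simulation, with the same spread for all genes, 53 of 100 changes of 8-fold between hepatocytes and nonparenchymal cells were recovered. That rate was not measured for genes that vary like the transporters.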
